A study of Mus musculus with 13 samples.

Results

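The 10 genes examined here belong to fatty acid synthesis and its transcriptional control, and were measured in whole-liver RNA of alcohol-fed mice. They were Srebf1 and Mlxipl, which encode the regulators SREBP1 and ChREBP, the enzyme genes Fasn, Acaca, Acly, Scd1, Elovl6 and Me1, and the lipid genes Pnpla3 and Thrsp. These 10 members were taken by gene symbol from the 53392 genes of the count table, and all 10 passed the filter on low counts that left 14317 genes for testing. No measured value was used to choose them, but the choice was made with earlier results of these data known.

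The liver makes fatty acids from cytosolic citrate. ACLY cleaves citrate to acetyl-CoA, acetyl-CoA carboxylase (Acaca) turns it into malonyl-CoA, fatty acid synthase (Fasn) builds palmitate with NADPH that malic enzyme (Me1) helps to supply, and ELOVL6 and SCD1 elongate and desaturate the product. SREBP1c, which responds to insulin, and ChREBP, which responds to carbohydrate, switch on this set of genes after a meal, and hepatic lipogenesis also follows the daily cycle of feeding and the circadian clock.

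RNAseq was done on livers of 13 female mice aged 8 to 14 weeks, all given a Lieber-DeCarli liquid diet with 28% of calories from ethanol (Etoh) for 4 weeks. The groups were 4 ASAH- mice with doxycycline (Dox) in the diet (ASAH- Etoh-Dox), 5 ASAH+ mice with Dox (ASAH+ Etoh-Dox) and 4 ASAH+ mice without it (ASAH+ Etoh), with Dox at 200 mg/l. The induced acid ceramidase came from TRE-ASAH1, a transgene of the ASAH+ mice that Dox turns on in hepatocytes. Both genotypes were homozygous for Albumin-Cre and for Rosa26-loxP-stop-loxP-rtTA. The genotypes were littermates, the strain background is not given in the sources used here, and no mouse went without ethanol, so an effect of alcohol itself could not be examined.

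The labels of the ASAH+ samples contradict each other on Dox, and the groups follow the sample descriptions and induction labels. Asah1 itself lay between 9660.5 and 15923 CPM (counts scaled to each library's total) in the 5 ASAH+ Etoh-Dox mice and between 40.0 and 55.0 CPM in the other 8. Total counts ran from 17819486 (ASAH+ Etoh replicate 4) to 35358711 (ASAH+ Etoh-Dox replicate 1) per mouse, with a median of 24454043. These mice also had the highest Fasn and the highest Me1, and the part of depth in that was not tested. The 6 hepatocyte markers summed to between 80477 and 129570 CPM in every mouse. The 5 adipocyte markers, of a tissue that also expresses lipogenic genes, summed to at most 0.144 CPM, and Lep was at 0 in all 13 libraries. In RNA of a whole organ, fewer cells of a type and less RNA per cell cannot be told apart.

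The start regions of 4 members are shown because Fasn, Acly and Elovl6 rose and fell together from mouse to mouse while Mlxipl did so less closely. Each is a stretch of 120 bases read 5′ to 3′ on the gene's strand from RefSeq (GRCm38.p6), with motif letters in capitals. It ends just before the RefSeq start site for Fasn, Acly and Mlxipl, and for Elovl6 just before the GENCODE start, which lies 31 bases upstream of the RefSeq one. The motifs searched on both strands were the E-box CACGTG, the sterol regulatory element TCACNCCAC, the carbohydrate response element (CACGNG and CNCGTG with 5 letters between them), the D-box TTATGNAA, the CCAAT box CCAAT and the GC box GGGCGG. The Fasn stretch lies at chr11:120824548-120824667 on the minus strand, the Acly stretch at chr11:100528001-100528120 on the minus strand, the Elovl6 stretch at chr3:129532235-129532354 on the plus strand, and the Mlxipl stretch at chr5:135089770-135089889 on the plus strand.
Fasn: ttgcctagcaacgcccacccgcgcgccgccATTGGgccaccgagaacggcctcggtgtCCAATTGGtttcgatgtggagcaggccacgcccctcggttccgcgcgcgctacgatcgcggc
Acly: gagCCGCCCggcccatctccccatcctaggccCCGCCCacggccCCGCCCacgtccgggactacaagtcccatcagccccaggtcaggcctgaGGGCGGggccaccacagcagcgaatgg
Elovl6: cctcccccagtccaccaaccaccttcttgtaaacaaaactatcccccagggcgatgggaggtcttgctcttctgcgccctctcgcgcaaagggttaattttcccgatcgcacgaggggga
Mlxipl: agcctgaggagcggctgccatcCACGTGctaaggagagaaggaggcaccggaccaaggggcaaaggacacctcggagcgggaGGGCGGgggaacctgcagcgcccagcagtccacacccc

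The Fasn stretch held 3 CCAAT boxes with first letters at positions -90, -62 and -59 from the start site, of which the last 2 overlap in 1 run and lie on opposite strands. The Acly stretch held 4 GC boxes, at -117, -88, -76 and -27. The Mlxipl stretch held an E-box at -98 and a GC box at -38, and the Elovl6 stretch held none of the 6 motifs. Over the 250 bases before each start, the CCAAT box was found in 6 of 9 members with a listed window and in 37.5% of 27025 genes, and the GC box in 5 of 9 members and in 35.4% of genes. The E-box was found in 1 of the 9 members and in 6.86% of genes, the sterol regulatory element in 1 member (Mlxipl, at a start site inside the gene) and in 1.22% of genes, and the D-box and the carbohydrate response element in 0 members and in 3.63% and 0.0444% of genes. The RefSeq start site listed for Acaca lies 65766 bases inside the gene as GENCODE annotates it, so its window is not its outermost promoter. Scd1 has no window in the table. A match describes these letters and not the binding of a factor. A missing match does not show that a site is absent, since variant letters and sites outside the 250 bases were not searched.

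The levels of the members differed widely. Per kilobase of the longest coding transcript, the median over 13 mice was highest for Scd1, at 1631 CPM per kilobase, followed by Thrsp at 129, Me1 at 58.8, Acly at 51.2, Mlxipl at 51.0, Fasn at 40.8, Srebf1 at 26.3, Elovl6 at 23.5, Acaca at 18.4 and Pnpla3 at 0.396. Scd1 was above Thrsp in 13 of 13 mice, Thrsp above Me1 in 12, and Acaca above Pnpla3 in 13. From Me1 down to Elovl6, neighbours in this order exchanged places: each was above the next in 7 to 11 of the 13 mice. Pnpla3 was barely detected, with 1 to 42 counts per mouse, so its values carry a large counting error.

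The spread from mouse to mouse differed among the members. Pnpla3 had the largest within-group standard deviation of log2 CPM, 0.94, at its low counts. Among the other 9 members the ratio of the highest to the lowest mouse was 7.80 for Elovl6, 6.64 for Fasn, 5.95 for Acly, 4.10 for Thrsp, 3.98 for Srebf1, 3.61 for Scd1, 3.31 for Acaca, 2.19 for Me1 and 2.02 for Mlxipl. The within-group standard deviation was 0.82 for Elovl6, 0.74 for Fasn and 0.73 for Acly, against a median of 0.24 over all 14317 genes. Only 3.44% of genes had a larger value than Elovl6. Me1 and Mlxipl, at 0.27 and 0.26, lay close to the median gene.

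**Figure D1:**
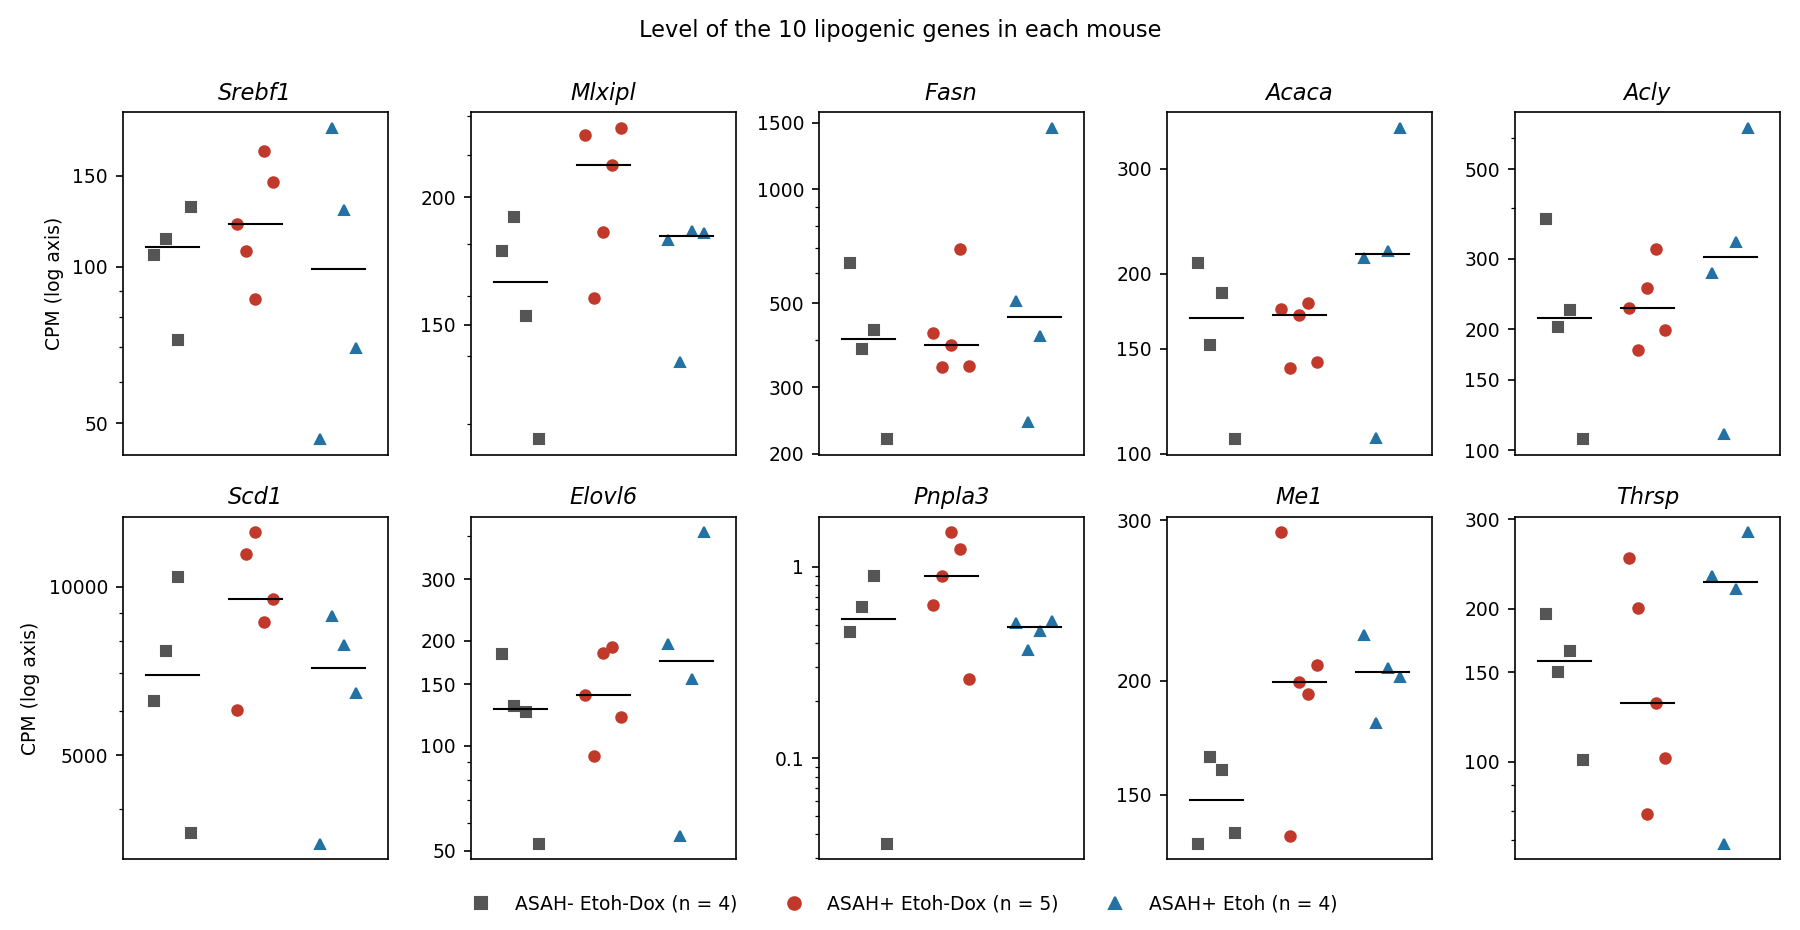
CPM of the 10 lipogenic genes in each of 13 mice (log axes that differ between panels), with 1 point per mouse and a line at each group's median. Fasn, Acaca, Acly and Elovl6 share their highest mouse (ASAH+ Etoh replicate 4, Fasn 1455 CPM) and their lowest (ASAH- Etoh-Dox replicate 4, Fasn 219 CPM). Me1 is the member whose ASAH- Etoh-Dox and ASAH+ Etoh mice do not overlap, as was so in 5.50% of all genes.

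The first comparison asked whether induced acid ceramidase goes with another level of the lipogenic genes, with ASAH- mice on the same diet as the control. Mlxipl was 177, 191, 153 and 116 CPM in the ASAH- Etoh-Dox mice, 230.1, 159, 185, 215 and 234 CPM in the ASAH+ Etoh-Dox mice, and 182, 138, 185 and 185 CPM in the ASAH+ Etoh mice. The induced mice tended to the upper end, with 17 of 20 pairs of an ASAH+ and an ASAH- mouse higher in the former, but the groups overlapped. The log2 fold change of ASAH+ Etoh-Dox against ASAH- Etoh-Dox was 0.36 ± 0.15 (SE), with an unadjusted p of 0.0329 and an adjusted p of 1.00 by edgeR's quasi-likelihood F test, adjusted by Benjamini-Hochberg. It was 0.24 without ASAH- Etoh-Dox replicate 4. A two-sided exact permutation test of Mlxipl between these groups gave 0.0714.

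Srebf1 was 105, 113, 72.2 and 130.2 CPM in ASAH- Etoh-Dox, 121, 107, 86.7, 167 and 146 CPM in ASAH+ Etoh-Dox, and 46.6, 185, 129 and 69.7 CPM in ASAH+ Etoh. The 4 uninduced ASAH+ mice held both the lowest and the highest value of the 13. Its log2 fold change of ASAH+ Etoh-Dox against ASAH- Etoh-Dox was 0.25 with a 95% confidence interval from -0.50 to 1.01. With 1 mouse left out it ran from 0.11 to 0.37.

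Me1 was 133, 165, 159.8 and 136 CPM in ASAH- Etoh-Dox, 291, 135, 199, 194 and 208 CPM in ASAH+ Etoh-Dox, and 225, 179.9, 207 and 202 CPM in ASAH+ Etoh. All ASAH- mice were below all ASAH+ Etoh mice, and below 4 of the 5 ASAH+ Etoh-Dox mice. Between ASAH- Etoh-Dox and ASAH+ Etoh, 5.50% of all genes did not overlap. For ASAH+ Etoh-Dox against ASAH- Etoh-Dox the log2 fold change was 0.47 ± 0.17 (SE), with an unadjusted p of 0.0131 and an adjusted p of 1.00 by edgeR's quasi-likelihood F test, adjusted by Benjamini-Hochberg. It was 0.31 without ASAH+ Etoh-Dox replicate 1. The two-sided exact permutation test of Me1 between these groups gave 0.0873.

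By that test 0 of 10 members passed the threshold of an adjusted p under 0.1 in this comparison, where 0.0140% of all genes did (2 of 14317). At an unadjusted p under 0.05 there were 2 members, Mlxipl and Me1, and 2.86% of all genes. DESeq2 and limma-voom also called 0 members. The fitted change was positive for 8 members and negative for Acaca (-0.02) and Thrsp (-0.0025), with a median of 0.25 over the members and of -0.0023 over all genes. The signs of these and of Fasn and Acly changed under other settings, Fasn and Acly when 1 mouse was left out (-0.16 and -0.19 at the lowest). In 0.887% of genes the mice of these groups did not overlap, and no member was among them. The 5 markers of endothelial cells summed to between 95.01 and 129.9 CPM in ASAH+ Etoh-Dox and to between 108 and 198 CPM in ASAH- Etoh-Dox, with a median log2 fold change of -0.41, 3 at an unadjusted p under 0.05 and 0 past the threshold. Their part in the values of Mlxipl and Me1 was not tested.

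Fasn was 639.6, 379, 426 and 219 CPM in the ASAH- Etoh-Dox mice, 418, 339.5, 389, 695 and 341 CPM in the ASAH+ Etoh-Dox mice, and 508, 243, 410.2 and 1455 CPM in the ASAH+ Etoh mice. A single mouse, ASAH+ Etoh replicate 4, stood above the other 12. The log2 fold change of ASAH+ Etoh-Dox against ASAH- Etoh-Dox was 0.07 with a 95% confidence interval from -0.96 to 1.10.

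Acly was 376, 203, 224 and 107 CPM in ASAH- Etoh-Dox, 226, 178, 254, 317 and 199.7 CPM in ASAH+ Etoh-Dox, and 276, 109.8, 330.4 and 635 CPM in ASAH+ Etoh. Elovl6 was 183, 130.0, 125 and 52.4 CPM in ASAH- Etoh-Dox, 140.0, 93.6, 184, 192 and 121 CPM in ASAH+ Etoh-Dox, and 196, 55.2, 155 and 409 CPM in ASAH+ Etoh. Acaca ran from 106 to 209 CPM in ASAH- Etoh-Dox, from 139 to 178 CPM in ASAH+ Etoh-Dox and from 106 to 351 CPM in ASAH+ Etoh. In these 3 genes, as in Fasn, the range of the ASAH+ Etoh-Dox mice lay inside that of the ASAH+ Etoh mice.

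Scd1, the most abundant member, was 6241, 7679, 10427 and 3621 CPM in ASAH- Etoh-Dox, 6014, 11437, 12528, 8661 and 9498 CPM in ASAH+ Etoh-Dox, and 3469, 8855, 7883 and 6446 CPM in ASAH+ Etoh. Its log2 fold change in induced mice was 0.46 ± 0.32 (SE) against ASAH- mice and 0.53 ± 0.32 (SE) against uninduced ASAH+ mice, and these comparisons share the induced mice. With 1 mouse left out the values ran from 0.25 (without ASAH- Etoh-Dox replicate 4) to 0.72 (without ASAH- Etoh-Dox replicate 3) and from 0.32 to 0.70. Pnpla3, a lipid droplet protein gene, ran from 0.0357 to 0.897 CPM in ASAH- Etoh-Dox, from 0.260 to 1.52 CPM in ASAH+ Etoh-Dox and from 0.366 to 0.520 CPM in ASAH+ Etoh. Thrsp, which encodes the lipogenic protein Spot 14, ran from 101 to 195 CPM, from 78.8 to 251 CPM and from 68.9 to 283 CPM in the same order. The groups overlapped for all 3 genes in every comparison.

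The second comparison kept the ASAH+ genotype and differed in Dox, and with it in the induction of the transgene. By edgeR's quasi-likelihood F test, adjusted by Benjamini-Hochberg 0 of 10 members passed the threshold, against 0.0140% of all genes, and 0 members and 7.29% of all genes had an unadjusted p under 0.05. DESeq2 and limma-voom called 0 members. The members' median log2 fold change was -0.19, with 5 higher and 5 lower, against 0.01 over all genes. Fasn was at -0.58 ± 0.47 (SE), Acly at -0.52 ± 0.44, Elovl6 at -0.48 ± 0.48 and Acaca at -0.46 ± 0.27. These values rest in large part on ASAH+ Etoh replicate 4, since without it they were 0.16, -0.03, 0.10 and -0.16. Groups did not overlap in 2.58% of all genes and in 0 members. The 5 endothelial markers summed to between 120.4 and 161 CPM in ASAH+ Etoh, and their median log2 fold change in this comparison was -0.45, with 4 at an unadjusted p under 0.05 and 0 past the threshold. Their part in the members' values was not tested.

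The third comparison, ASAH- Etoh-Dox against ASAH+ Etoh mice, set the 2 possible controls against each other. They differ in the TRE-ASAH1 transgene and in Dox, which cannot be told apart here, and neither group has induced acid ceramidase. By edgeR's quasi-likelihood F test, adjusted by Benjamini-Hochberg 0 of 10 members passed, against 0.0140% of all genes, and 1 member and 9.18% of all genes had an unadjusted p under 0.05. This member was Me1, at a log2 fold change of -0.45 ± 0.17 (SE), an unadjusted p of 0.0201 and an adjusted p of 0.464. ASAH- mice were lower in 16 of 16 pairs of mice, and a two-sided exact permutation test of the 8 mice gave 0.0286, the smallest p that 4 against 4 mice allow. Groups did not overlap in 1 of 10 members and in 5.50% of all genes.

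DESeq2 fitted on these 8 mice alone gave Me1 an adjusted p of 0.0117. It was 1 of 10 members called, among 168 of the 53392 genes given to DESeq2 without a count filter. On data simulated for ASAH+ Etoh-Dox against ASAH- Etoh-Dox, with all 13 mice in the fit, 20.4% of DESeq2's calls were false, against 8.75% for edgeR. The fit on 8 mice was not simulated, so its share of false calls is not known. DESeq2 fitted on all 13 mice and limma-voom called 0 members. The median log2 fold change of the members was -0.42, with 8 of 10 lower in ASAH- mice, against 0.02 over all genes. The values were -0.65 for Fasn, -0.57 for Acly, -0.73 for Elovl6 and -0.45 for Acaca, and without ASAH+ Etoh replicate 4 they were 0.08, -0.09, -0.16 and -0.15. The sum of Kupffer cell markers did not overlap between the same groups: the 5 genes summed to between 306 and 657 CPM in ASAH- Etoh-Dox and to between 237 and 305 CPM in ASAH+ Etoh, none at 0. Their median log2 fold change was 0.64, with 4 at an unadjusted p under 0.05 and 0 past the threshold. Of 4 lymphocyte markers tested 2 had an unadjusted p under 0.05 and 0 passed, with a median log2 fold change of 0.75. The part of these markers in the values of Me1 was not tested.

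**Figure D2:**
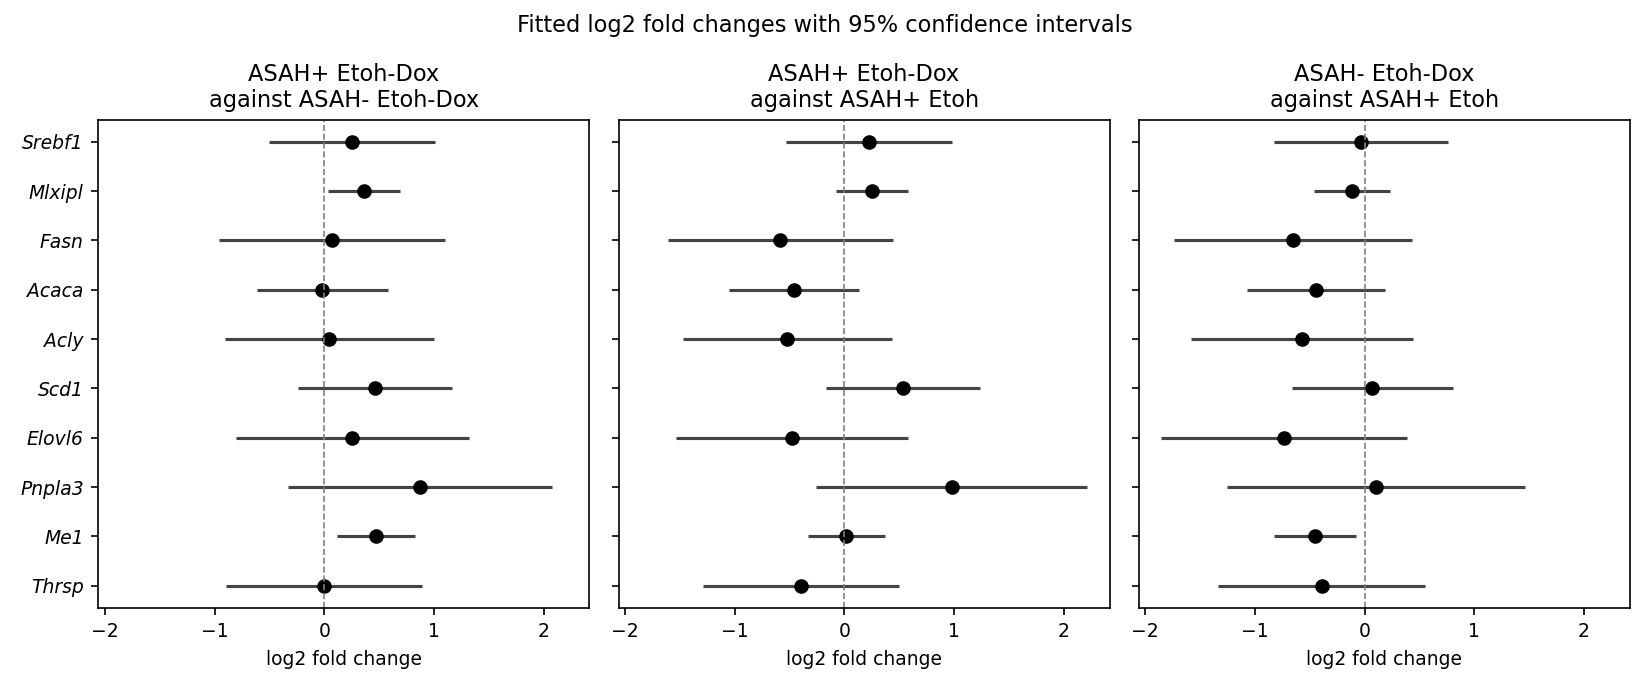
Fitted log2 fold changes of the 10 members (points) with 95% confidence intervals (bars) in the 3 comparisons, from edgeR over all 13 mice. The intervals of Mlxipl and Me1 in the first comparison and of Me1 in the third do not include 0, and after adjustment over 14317 genes 0 members passed the threshold in any of the 3.

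Genes around the members showed as little between the groups. Of 16 genes of the SREBP and ChREBP machinery, 18 further genes of fatty acid synthesis, elongation and desaturation, 13 genes of NADPH supply and carbohydrate-responsive glycolysis and 7 of triglyceride synthesis, 0 passed the threshold in the 3 comparisons by edgeR's quasi-likelihood F test, adjusted by Benjamini-Hochberg. The smallest p belonged to Mogat1, a monoacylglycerol acyltransferase gene at 9 to 35 counts per mouse. It was at -1.41 in ASAH+ Etoh-Dox against ASAH+ Etoh mice (unadjusted p 0.000521, adjusted p 0.383). In that comparison Tkfc, the triokinase gene of fructose metabolism, was at -0.76 with an unadjusted p of 0.0214.

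Co-variation was then examined mouse by mouse. Fasn, Acaca, Acly and Elovl6, a set picked after its values were seen, ranked the mice almost alike: ASAH+ Etoh replicate 4 was the highest in all 4 genes, ASAH- Etoh-Dox replicate 4 the lowest in all 4, and ASAH+ Etoh replicate 2 the second lowest in all 4. Their 6 pairs had Pearson r of log2 CPM between 0.92 and 0.97 and Spearman rho between 0.84 and 0.93 over 13 mice. Acaca and Acly had r = 0.97 and Acly and Elovl6 also had r = 0.97.

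Each member was set against all other genes in this way, with a two-sided permutation test of 100000 resamples, so that 14316 relations were computed per member. For Fasn, 1.55% of all genes correlated positively and 1.91% negatively at a Benjamini-Hochberg adjusted p under 0.1. Acly was the first of 14316 genes in order of r with Fasn (r = 0.94, permutation p of 1e-05, the smallest the resamples can give, adjusted p = 0.0191), Elovl6 the third and Acaca the fourth. For Acaca, Acly was the first and Elovl6 the second. The share of all genes that passed was 0.943% positive and 0.664% negative for Acaca, 1.30% and 1.29% for Acly, and 1.22% and 1.07% for Elovl6. Over the 6 pairs, each taken from both sides, the adjusted permutation p for Pearson's r was between 0.0179 and 0.0330, and that for Spearman's rho was between 0.0573 and 0.225. By rho, part of them were therefore above the threshold of 0.1.

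The set was picked from these same mice, so other settings describe the relation and are no independent test of it. Deviations from the group means gave r between 0.92 and 0.98 for the 6 pairs. Without the 2 mice farthest from the median of the first gene r was between 0.78 and 0.93, and with any single mouse left out it was between 0.84 and 0.98, lowest for Fasn and Acaca without ASAH+ Etoh replicate 4. After the group means and the Dbp to Arntl ratio described below were taken out, an alternative added after seeing the data, r was between 0.88 and 0.97.

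Scd1 did not follow this set. Its r with Fasn was -0.05, with Acaca -0.09, with Acly 0.01 and with Elovl6 0.01, and by Spearman's rho the values were -0.25, -0.27, -0.23 and -0.23. The values of r depended on ASAH- Etoh-Dox replicate 4, low in Scd1 and lowest in the set, and without it were -0.38, -0.45, -0.36 and -0.39. Without the 2 mice farthest from the median of Scd1 they were -0.50, -0.48, -0.47 and -0.38. The mouse with the most Scd1, ASAH+ Etoh-Dox replicate 3, was the eighth of 13 for Fasn, and the mouse with the most Fasn was the ninth for Scd1. Pnpla3 was the member closest to Scd1 (r = 0.64, permutation p = 0.0198, adjusted p = 1.00), at counts near the limit of detection, with r = 0.41 without ASAH- Etoh-Dox replicate 4 and 0.23 without the 2 mice farthest from the median of Pnpla3. For Scd1, 0.00% of all genes correlated in either direction at an adjusted p under 0.1.

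Srebf1 ran opposite to the set in sign, with r of -0.43 with Fasn, -0.60 with Acaca, -0.45 with Acly and -0.54 with Elovl6. For Acaca the permutation p was 0.0304 and the adjusted p over all genes was 0.485 with Srebf1 and 0.273 with Acaca as the first gene, with rho = -0.58, r = -0.58 on deviations from the group means and r = -0.52 without the 2 mice farthest from the median of Srebf1. None of these relations passed the threshold, and for Srebf1 0.00% of all genes did. Reads were summed over all transcripts of the gene, so the values do not separate SREBP1a from SREBP1c. Among the listed genes the closest to Srebf1 were Usf2, an E-box binding factor (r = 0.85, adjusted p = 0.184), and Mbtps1, the protease that cleaves SREBP precursors (r = 0.78, adjusted p = 0.350), neither of which passed.

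Mlxipl and Thrsp leaned toward the set. Mlxipl had r of 0.62 with Elovl6, 0.54 with Acly, 0.45 with Fasn and 0.44 with Acaca, with adjusted permutation p between 0.237 and 0.617 over the pairs taken from both sides. On deviations from the group means r was 0.69, 0.66, 0.56 and 0.63. Without the 2 mice farthest from the median of Mlxipl the values over the remaining mice were 0.08, -0.03, -0.02 and -0.16. Without the 2 mice farthest from the median of the other gene they were 0.56, 0.43, 0.39 and 0.29. The relation of Mlxipl to the set thus depended on which mice were left out. Mlxipl and Me1 had r = 0.67 (rho = 0.65, permutation p = 0.0130, adjusted p = 0.425 with Mlxipl and 0.922 with Me1 as the first gene). Without the 2 mice farthest from the median of Mlxipl they had r = 0.68. Thrsp had r of 0.73 with Acaca, 0.65 with Acly, 0.62 with Fasn and 0.59 with Elovl6, with adjusted permutation p between 0.124 and 0.430 from both sides, where 0.0349% of all genes passed as positive and 0.0489% as negative with Thrsp. Without the 2 mice farthest from the median of Thrsp these 4 values of r were between 0.58 and 0.76, and with the group means and the Dbp to Arntl ratio taken out they were 0.94, 0.92, 0.82 and 0.85. For Mlxipl, Me1 and Pnpla3 0.00% of all genes passed.

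Over all 45 pairs of members the median r was 0.32, and a member's median r with all genes was between -0.01 and 0.02. The value of 0.32 was 0.124 without ASAH- Etoh-Dox replicate 4, the mouse with the lowest level of Mlxipl, Fasn, Acaca, Acly, Elovl6 and Pnpla3, and 0.417 without ASAH- Etoh-Dox replicate 1.

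**Figure D3:**
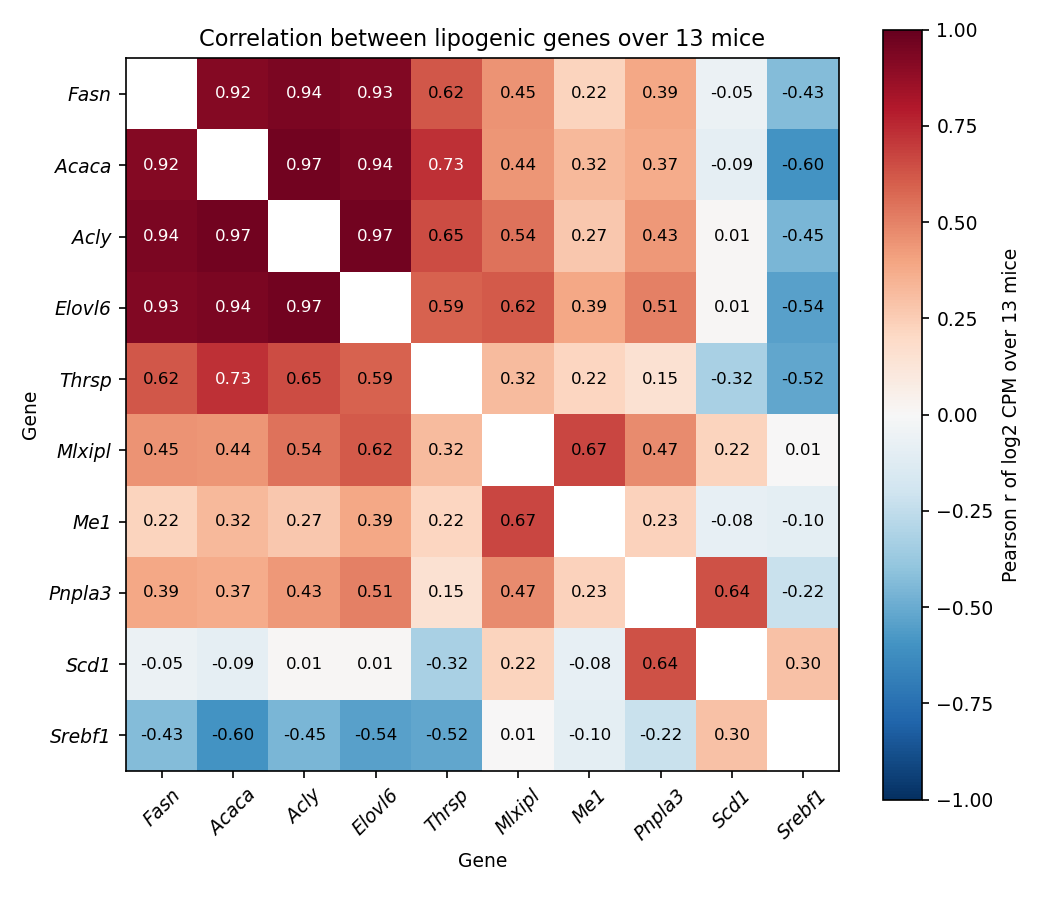
Pearson r of log2 CPM over 13 mice for every pair of the 10 members, with the colour scale from -1 to 1. Fasn, Acaca, Acly and Elovl6 form a block with r of 0.92 to 0.97, Scd1 is between -0.09 and 0.01 with each of them (between -0.45 and -0.36 without ASAH- Etoh-Dox replicate 4), and Srebf1 is negative with each of them.

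**Figure D4:**
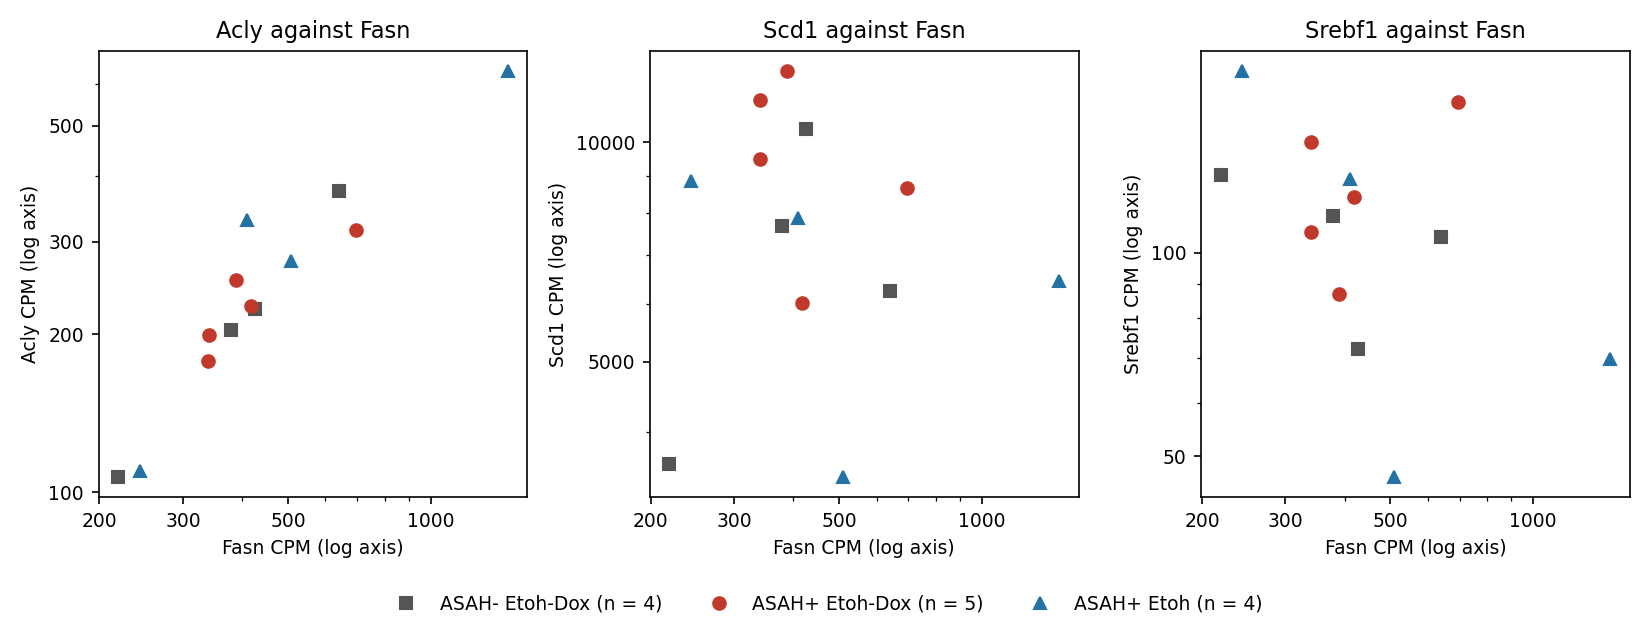
CPM of Acly, Scd1 and Srebf1 against Fasn in 13 mice (log axes), with 1 point per mouse and symbols for the 3 groups. Acly rises with Fasn (r = 0.94), while Scd1 does not (r = -0.05, and -0.38 without ASAH- Etoh-Dox replicate 4) and Srebf1 tends to be lower where Fasn is higher (r = -0.43, not past the threshold).

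Other genes of the listed pathways that followed Fasn at an adjusted permutation p under 0.1 were 3 of 13 genes of NADPH supply and glycolysis, set against the 1.55% of all genes that correlated positively, namely Tkfc, triokinase of fructose metabolism (r = 0.79, adjusted p = 0.0596), Pgd, 6-phosphogluconate dehydrogenase (r = 0.78, adjusted p = 0.0853), and Pklr, liver pyruvate kinase (r = 0.78, adjusted p = 0.0947). Of 12 genes of the feeding and insulin state, Igfbp1 (r = 0.81, adjusted p = 0.0626) and Ppargc1a (r = 0.77, adjusted p = 0.0949) followed it, both of which insulin is known to lower. Of 17 clock genes Nfil3 did so (r = 0.76, adjusted p = 0.0674). By Spearman's rho Tkfc and Pklr passed (adjusted p = 0.0630 and 0.0605), where 0.719% of all genes passed as positive and 0.978% as negative, and Pgd, Igfbp1, Ppargc1a and Nfil3 did not (adjusted p from 0.102 to 0.175). Without the 2 mice farthest from the median of Fasn, Pearson's r of these 6 genes was between 0.56 (Ppargc1a) and 0.81 (Pklr). None of 16 genes of the SREBP and ChREBP machinery, 18 of fatty acid synthesis and 7 of triglyceride synthesis beyond the members passed with Fasn.

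Across all genes, those most like the members' mean standardized level over 13 mice were Anxa6 (r = 0.91), Abca3 (0.90), Btbd9 (0.90), Ethe1 (0.89), Babam2 (0.88), Sema4a (0.88), Pomt1 (0.88) and Pygl (0.87), the last being liver glycogen phosphorylase. The least like it were Wdr12 (-0.89), Ctps (-0.89), Cenpa (-0.88) and Bcl2l11 (-0.88). They were named for these values, which therefore carry no test.

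The relation to the clock was examined through the log2 ratio of Dbp to Arntl. Arntl encodes BMAL1, the activator at the core of the clock, and Dbp is a clock output gene whose transcript peaks when that of Arntl is low, so the ratio of their CPM moves with time of day. The ratio was -0.96, 6.58, 1.82 and 6.21 in the ASAH- Etoh-Dox mice, 6.76, 6.91, -1.66, 0.15 and 2.72 in the ASAH+ Etoh-Dox mice, and 4.48, 6.14, 5.09 and 1.60 in the ASAH+ Etoh mice. The values were uneven within the groups: in both Dox groups no mouse lay between 2.72 and 6.21, while 3 of the 4 ASAH+ Etoh mice did, so that this part of the range was filled by ASAH+ Etoh mice alone. Group means were 3.41 ± 3.63 (SD, n = 4), 2.98 ± 3.85 (SD, n = 5) and 4.33 ± 1.94 (SD, n = 4), and two-sided exact permutation tests of the 3 comparisons gave 0.897, 0.532 and 0.743. The time at which each liver was taken is not given in the sources used here.

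Members were fitted on this ratio with the group means in the model. Acly fell by 0.136 ± 0.0487 (SE) on the log2 scale per log2 unit of the ratio, with an unadjusted p of 0.0176 and an adjusted p of 0.140 by edgeR's quasi-likelihood F test, adjusted by Benjamini-Hochberg. The slope was -0.145 ± 0.0559 for Elovl6, -0.141 ± 0.0548 for Fasn and -0.0765 ± 0.0331 for Acaca, with unadjusted p of 0.0257, 0.0267 and 0.0398 and adjusted p of 0.175, 0.179 and 0.221. These were the members with an unadjusted p under 0.05, and 0 of 10 members passed the threshold, where 9.62% of all genes did (4.76% falling, 4.86% rising). At an unadjusted p under 0.05 there were 4 of 10 members and 19.9% of all genes.

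For the other members the slope was 0.0479 for Srebf1, -0.0157 for Mlxipl, -0.0315 for Scd1, -0.110 for Pnpla3, 0.0112 for Me1 and 0.0253 for Thrsp, and each 95% confidence interval included 0. The regulators' intervals were from -0.0662 to 0.162 for Srebf1 and from -0.0627 to 0.0312 for Mlxipl. With 1 mouse left out the slope ran from 0.027 to 0.071 for Srebf1 and from -0.033 to -0.0022 for Mlxipl. That of Scd1 ran from -0.060 to -0.0084. DESeq2 called 1 member, Acly (slope -0.136, adjusted p 0.0860), limma-voom called 0, and edgeR called Acly without ASAH+ Etoh replicate 2 (slope -0.115, adjusted p 0.0981) and Fasn without ASAH+ Etoh-Dox replicate 3 (slope -0.184, adjusted p 0.0867). In the same settings DESeq2 called 1743 of the 53392 genes given to it without a count filter. Called by edgeR were 1226 of 14503 genes without the former mouse and 1617 of 14202 without the latter. In the edgeR fits 1 of 10 members is close to the share of all genes. On simulated data 21.2% of DESeq2's slope calls were false, against 8.46% for edgeR and 6.63% for limma-voom.

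Correlations over the 13 mice put the same 4 members first. Elovl6 had r = -0.58 with the ratio (permutation p = 0.0381, adjusted p = 0.225) and rho = -0.60 (permutation p = 0.0320, adjusted p = 0.221). Acly had r = -0.57 (permutation p = 0.0421, adjusted p = 0.235) and rho = -0.62, and Fasn had r = -0.53 (permutation p = 0.0572, adjusted p = 0.279) and rho = -0.59. On deviations from the group means r was -0.64 for Elovl6, -0.64 for Acly and -0.60 for Fasn, and without the 2 mice farthest from the median of the ratio it was -0.59, -0.59 and -0.66.

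Of the 14317 relations computed, 0 of 10 members and 7.77% of all genes (4.02% positive, 3.76% negative) passed an adjusted p under 0.1 by Pearson's r, and 0 members and 6.30% of genes by Spearman's rho. Members with an unadjusted permutation p under 0.05 were Elovl6 and Acly by r, where 19.4% of all genes were under it, and Elovl6, Acly and Fasn by rho, where 18.1% were. Acaca had r = -0.45, Pnpla3 -0.42, Scd1 -0.28, Mlxipl -0.26, Srebf1 0.21, Thrsp 0.13 and Me1 0.05. With 1 mouse left out r ran from -0.53 to -0.26 for Pnpla3 and from -0.44 to -0.10 for Scd1. For Mlxipl it ran from -0.44 to -0.13 and for Srebf1 from 0.11 to 0.36. Thrsp, which correlated with Acaca at 0.73, turned in sign to -0.06 without the 2 far mice, and Me1 turned to -0.14. The mouse highest for Fasn had a ratio of 1.60, and the 2 mice lowest for Fasn had 6.21 and 6.14, but mice with 6.76 and 6.91 had Fasn of 418 and 339.5 CPM.

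**Figure D5:**
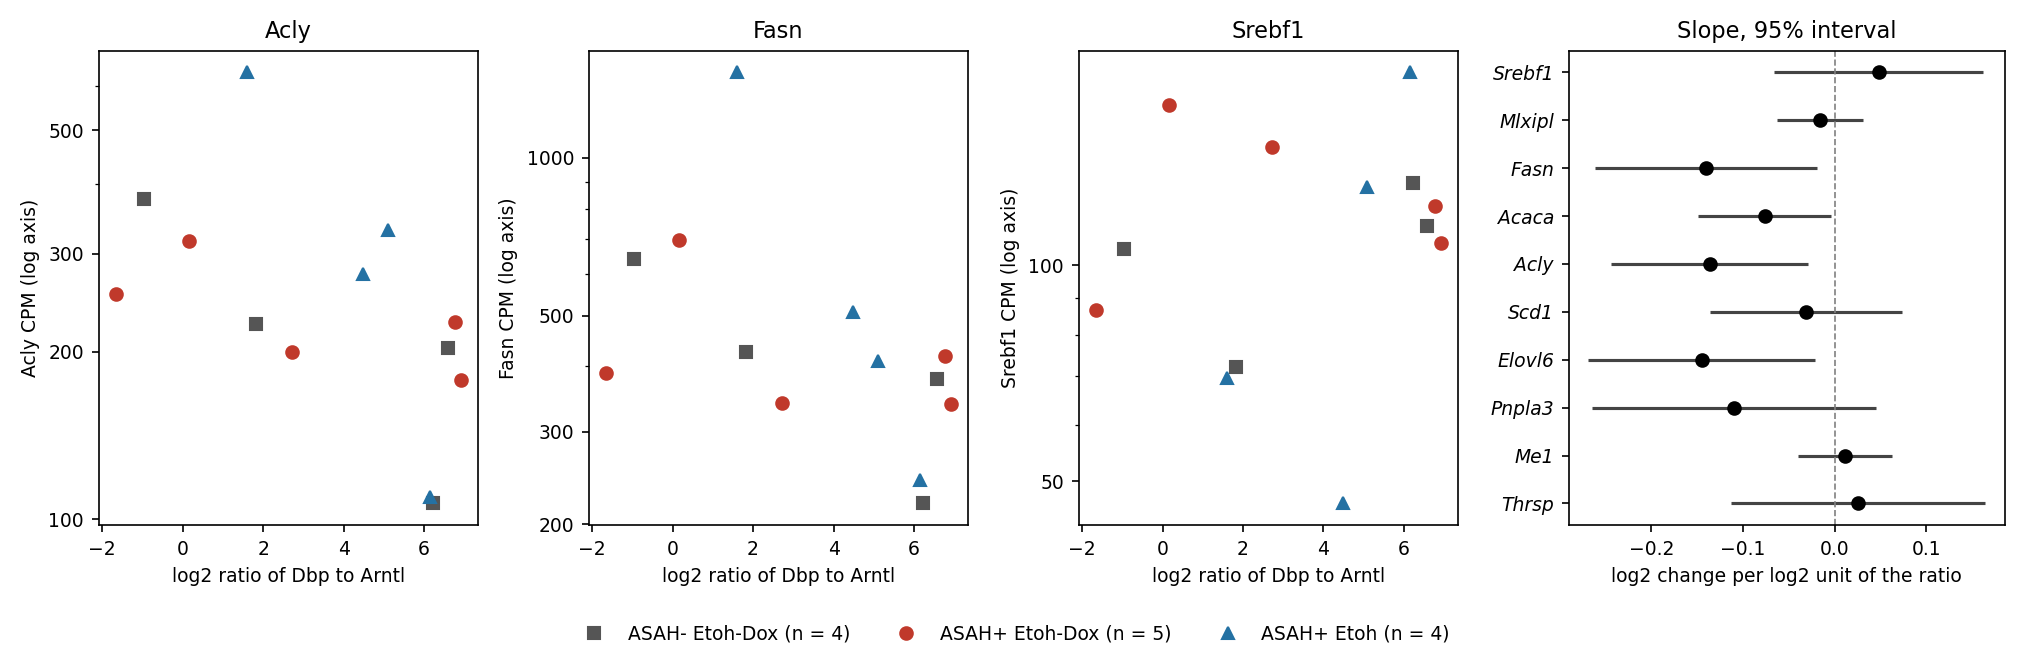
CPM of Acly, Fasn and Srebf1 (log axes) against the log2 ratio of Dbp to Arntl in 13 mice, and the fitted slope of each member with its 95% confidence interval. Acly, Elovl6, Fasn and Acaca have slopes below 0 with intervals that do not include 0, the other 6 intervals include 0, and 0 members passed the adjusted threshold.

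Of the genes around the members a few passed on the ratio in the same edgeR fit, to be read against 9.62% of all genes. Of the SREBP and ChREBP machinery 2 of 16 passed: Insig2, which holds SREBP precursors in the endoplasmic reticulum, fell with a slope of -0.211 (adjusted p 0.000612), and Sik1, a kinase of the salt-inducible family, rose with 0.247 (adjusted p 8.24e-05). Of 18 further genes of fatty acid synthesis 4 passed: the elongases Elovl5 (-0.105) and Elovl3 (-0.139) and the dehydratase Hacd2 (-0.0380) fell, and Mid1ip1, which encodes an activator of acetyl-CoA carboxylase, rose (0.0991). Gpd1 (-0.116) fell as 1 of 13 genes of NADPH supply and glycolysis, and Agpat2 (-0.0942) as 1 of 7 genes of triglyceride synthesis. Of 12 genes of the feeding and insulin state 3 passed, with G6pc (-0.177) and Ppargc1a (-0.0866) falling and Cpt1a (0.0549) rising. Of 17 clock genes 14 passed, Dbp and Arntl among them, which form the ratio. Of 5 cholangiocyte markers 1, Sox9, fell (-0.112, adjusted p 0.0988), while Krt19 (-0.138), Spp1 (-0.0492), Epcam (0.00751) and Krt7 (0.00576) did not pass, and their part in the members' slopes was not tested.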

How the data were processed

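Liver RNA of 13 mice in 3 groups was sequenced from poly(A)-selected, stranded libraries. The authors quantified GENCODE M19 transcripts (GRCm38.p6) by Salmon and obtained gene sums through tximport. Deposited values are estimated counts, unscaled, and 100% are whole numbers. Reads that fit several transcripts are shared out by the software, so genes with near-identical copies are less certain, and transcript lengths per mouse were not used here. Groups came from the sample descriptions.

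Gene names and positions came from GENCODE M21 (GRCm38), where 53355 identifiers were found. Counts were filtered by group, scaled by TMM, and fitted with edgeR 4.0.16 in R 4.3.3 by robust quasi-likelihood with 3 group means over all 13 mice. The slope model added the log2 ratio of Dbp to Arntl. P-values were adjusted by Benjamini-Hochberg over all genes tested, with a threshold of 0.1. The authors' methods used DESeq2, which was an alternative here. CPM used TMM-scaled totals; correlations used log2 CPM with a prior count of 2 and 100000 permutations. Error bars are SE unless stated. The depth per mouse, 17819486 to 35358711 counts, makes counting error small for the members except Pnpla3, and intervals cover mice rather than counting alone. Other named genes with low counts per mouse were Mogat1 (9 to 35), Krt7 (4 to 25) and Krt19 (8 to 40). Arntl and Npas2, which enter the ratios, fell to 23 and 2 counts in their lowest mice.

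The fits were tested on simulated data with 200 changed genes. For the slope the false share among calls was 8.46% with edgeR, 6.63% with limma-voom and 21.2% with DESeq2. For ASAH+ Etoh-Dox against ASAH- Etoh-Dox it was 8.75%, 8.33% and 20.4%. Alternatives were DESeq2 1.42.0, limma-voom (limma 3.58.1), other scaling, filters and dispersions, Asah1 left out of totals, the groups compared alone, the ratio as a covariate, a Per3 to Npas2 ratio, a replicate block and each mouse left out. Replicate numbers, from the titles, name different animals. The members and gene lists were chosen with earlier results of these data known. The genes named were all members in every comparison, of the other lists those past the threshold and up to 3 with the smallest p, Dbp and Arntl, and the 8 genes most and 4 least like the members' mean; others were named after their values were seen.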

Additional observations from a re-analysis of the deposited data

Results flagged for a closer look

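Outlying mice were sought in 33 sets of values, the 10 members and the Dbp to Arntl ratio in each of 3 groups, by the gap of the extreme mouse to its neighbour against the group's range (Dixon's 95% limit). Chance alone marks about 1 in 20 such sets, and 2 were marked. Fasn in ASAH+ Etoh-Dox replicate 4 was 695 CPM, while the other 4 mice of the group lay between 339.5 and 418 CPM. This mouse also had the highest Acly and Elovl6 of its group, at 317 and 192 CPM. Mlxipl in ASAH+ Etoh replicate 2 was 138 CPM, while the other 3 mice lay between 182 and 185 CPM. The same mouse had the highest Srebf1 of all 13, at 185 CPM, and the lowest Fasn, Acaca, Acly, Elovl6 and Thrsp of its group. ASAH+ Etoh replicate 4, with 1455 CPM of Fasn, did not pass this limit in its group of 4. The cause of these values was not tested.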

How the results depend on the processing

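In the 3 group comparisons 0 members passed under every alternative run except DESeq2 on the groups compared alone. It called 1 (Me1) in ASAH- Etoh-Dox against ASAH+ Etoh, among 168 of 53392 genes. With any 1 mouse left out the count stayed between 0 and 0 in each comparison and for the correlation with the ratio. For the slope on the ratio, DESeq2 called 1 member among 1743 genes, and leaving out 1 mouse gave between 0 and 1 (1 among 1226 genes without ASAH+ Etoh replicate 2 and 1 among 1617 without ASAH+ Etoh-Dox replicate 3). Over all genes the 1377 slope calls became 854 at an adjusted p under 0.05 and 637 without ASAH- Etoh-Dox replicate 1, and the 1113 correlation calls became 559 without the 2 mice farthest from the median ratio and 2086 on deviations from the group means. DESeq2 on all 13 mice called 12, 95 and 150 genes in the group comparisons, where edgeR called 2 in each.

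The replicate block, whose numbers name different mice (mean correlation of same-numbered mice -0.046 over 12 pairs), gave 0 members in all 3 comparisons and for the slope, and 503 slope calls over all genes. Under the block Acaca (0.0058) and Thrsp (0.078) in ASAH+ against ASAH- on Etoh-Dox, Me1 (-0.015) in ASAH+ Etoh-Dox against ASAH+ Etoh, and Srebf1 (0.016) and Pnpla3 (-0.0069) in ASAH- Etoh-Dox against ASAH+ Etoh changed sign.

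The median r over pairs of members, 0.32, was 0.24 by Spearman's rho, 0.45 without the 2 far mice, and between 0.124 and 0.417 with 1 mouse left out. Signs changed only for values that had not passed. Under limma-voom they did for Acaca (0.017) in ASAH+ against ASAH- on Etoh-Dox, Me1 (-0.024) in ASAH+ Etoh-Dox against ASAH+ Etoh, and Srebf1 (0.13) and Pnpla3 (-0.51) in ASAH- Etoh-Dox against ASAH+ Etoh. The ratio as a covariate turned the last pair to 0.028 and -0.028. Thrsp in ASAH+ against ASAH- on Etoh-Dox turned to 0.0019 under DESeq2, 0.00024 under DESeq2's size factors, 0.015 with no count filter, 0.0060 without Asah1 and 0.0056 in the groups compared alone. Without the 2 far mice r with the ratio turned to -0.14 for Me1 and -0.056 for Thrsp.

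With 1 mouse left out, values in ASAH+ against ASAH- on Etoh-Dox ran from -0.18 to 0.13 for Acaca, from -0.19 to 0.41 for Acly, from -0.16 to 0.37 for Fasn and from -0.25 to 0.17 for Thrsp. In ASAH+ Etoh-Dox against ASAH+ Etoh they ran from -0.79 to 0.10 for Elovl6, from -0.86 to 0.16 for Fasn, from -0.15 to 0.13 for Me1 and from -0.028 to 0.62 for Srebf1. In ASAH- Etoh-Dox against ASAH+ Etoh they ran from -0.96 to 0.084 for Fasn, from -0.21 to 0.011 for Mlxipl, from -0.34 to 0.51 for Pnpla3, from -0.19 to 0.28 for Scd1 and from -0.28 to 0.37 for Srebf1. Slopes ran from -0.021 to 0.036 for Me1 and from -0.023 to 0.060 for Thrsp, and r with the ratio from -0.19 to 0.21 for Me1 and from -0.12 to 0.32 for Thrsp. The causes were not tested. With 4 or 5 mice per group, the 95% intervals of Fasn, Acly and Elovl6 reached past a 2-fold change in at least 1 direction in each of the 3 comparisons.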
